A study of Mus musculus with 9 samples.

Results

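The Ly6 genes examined here were Ly6e, Ly6a, Ly6c1, Ly6c2 and I830127L07Rik, 5 of the 55471 genes counted. They lie within 180 kb of mouse chromosome 15, and they were chosen as expressed or closely related genes of the Ly6 cluster, together with a neighbouring transcript, from their values in control and DKO libraries. Every library came from OT-I CD8+ T cells, whose T cell receptor recognises an ovalbumin peptide. Naive cells were activated in culture with antibodies to CD3ε and CD28 and with IL-2, transduced with a hairpin, sorted on the Ametrine reporter and given to C57BL/6 mice carrying CD45.1. The mice were infected with LmOVA, Listeria monocytogenes that makes ovalbumin, and the transferred CD45.2 Ametrine+ cells were sorted on day 7 after infection. The 4 control libraries were from Bdh1-WT cells with shCtrl, a hairpin against firefly luciferase, and the 5 DKO libraries were from Bdh1-KO cells with shOxct1, a hairpin against Oxct1. Oxct1 was therefore knocked down rather than deleted, both groups were activated in culture and transduced before transfer, and no untransduced or uninfected cells are among the libraries used here. The labels give neither the tissue nor the age of the mice, and do not say whether replicates came from separate animals, so the p-values measure only the spread between these libraries.

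Proteins of the Ly6/uPAR family fold into a small domain held by disulfide bonds and are mostly tethered to the outer membrane leaflet by a GPI anchor. Ly6C, encoded by the near-identical genes Ly6c1 and Ly6c2, marks effector and memory CD8 T cells as well as inflammatory monocytes. Ly6A, also called Sca-1, marks blood stem cells and activated lymphocytes, and Ly6E, also called Sca-2, marks thymocytes and is widely expressed. Several of these genes are induced by interferons in lymphocytes.

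On the GRCm38 build, the 5 genes follow each other in a fixed order. Ly6e lies at chr15:74955051-74959905 on the plus strand, Ly6a at chr15:74994877-74998031 on the minus strand, Ly6c1 at chr15:75044018-75048830 on the minus strand, Ly6c2 at chr15:75108158-75111970 on the minus strand and I830127L07Rik at chr15:75131377-75135128 on the minus strand. The first 4 are protein-coding in GENCODE M21. That annotation lists I830127L07Rik as a transcribed unprocessed pseudogene, and its transcript there holds no reading frame longer than 35 codons, whereas the frames of Ly6a, Ly6c1, Ly6c2 and Ly6e have 134, 131, 131 and 136 codons. RefSeq lists the same locus as the protein-coding gene Ly6a2, so the 2 annotations differ on whether it makes a protein.

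The coding starts of Ly6c2, Ly6a and Ly6c1 are shown because the relatedness of these genes bears on how reads can be told apart. Each is the first 90 bases of the longest reading frame, read 5′ to 3′ from the GENCODE M21 transcript, and capitals mark bases that differ from Ly6c2.
Ly6c2 coding start: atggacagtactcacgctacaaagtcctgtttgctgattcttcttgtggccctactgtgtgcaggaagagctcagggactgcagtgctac
Ly6a coding start: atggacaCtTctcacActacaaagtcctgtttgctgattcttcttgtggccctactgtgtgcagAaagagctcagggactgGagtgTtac
Ly6c1 coding start: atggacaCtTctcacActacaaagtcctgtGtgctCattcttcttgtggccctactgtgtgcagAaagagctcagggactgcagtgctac
Over this stretch Ly6a and Ly6c1 each differed from Ly6c2 at 6 positions, and Ly6e differed at 47. Over the best-aligned stretch of the transcripts Ly6c1 and Ly6c2 were 97.6% identical (802 of 822 aligned bases). On the same measure I830127L07Rik was 85.5% identical to Ly6a (547 of 640) and 82.1% to Ly6c2 (591 of 720). Of all 100-base words in the Ly6c2 transcript, 15.8% also occurred in Ly6c1 and in no other gene, while Ly6a, Ly6e and I830127L07Rik shared no 100-base word with another gene. With 50-base words the shared part was 33.0% for Ly6c2, 36.7% for Ly6c1, 11.3% for I830127L07Rik, 10.04% for Ly6a and none for Ly6e. The counts hold reads assigned to a single gene, and reads that map to several places were left out. Reads from the shared stretches of Ly6c1 and Ly6c2 could therefore be lost, and the counts of these 2 genes are uncertain to that extent.

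The RefSeq promoter table of the GRCm38.p6 build holds 3 of the 5 genes, Ly6c1, Ly6c2 and Ly6a2 (I830127L07Rik). It has no entry for Ly6a or Ly6e. The 250 bases before the first listed start site of these genes are printed because Ly6c2 and I830127L07Rik were the members with separate group values. All are minus-strand sequences read 5′ to 3′, from chr15:75111972-75112221 for Ly6c2, chr15:75135129-75135378 for I830127L07Rik and chr15:75048838-75049087 for Ly6c1, and capitals mark the match to a RUNX motif.
Ly6c2 promoter: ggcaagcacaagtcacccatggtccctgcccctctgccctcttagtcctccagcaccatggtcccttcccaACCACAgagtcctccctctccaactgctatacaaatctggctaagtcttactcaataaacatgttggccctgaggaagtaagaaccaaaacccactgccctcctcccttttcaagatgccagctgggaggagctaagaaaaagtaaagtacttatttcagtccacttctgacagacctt
I830127L07Rik promoter: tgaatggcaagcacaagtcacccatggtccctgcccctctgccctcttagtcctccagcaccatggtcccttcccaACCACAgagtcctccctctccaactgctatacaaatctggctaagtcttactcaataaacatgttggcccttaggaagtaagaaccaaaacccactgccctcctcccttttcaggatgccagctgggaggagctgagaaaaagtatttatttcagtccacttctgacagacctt
Ly6c1 promoter: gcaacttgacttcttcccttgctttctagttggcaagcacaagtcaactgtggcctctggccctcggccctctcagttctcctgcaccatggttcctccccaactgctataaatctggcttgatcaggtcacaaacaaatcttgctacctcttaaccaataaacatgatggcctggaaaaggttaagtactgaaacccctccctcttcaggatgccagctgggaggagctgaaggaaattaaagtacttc
The Ly6c2 and I830127L07Rik promoters were 98.4% identical, at 241 of 245 aligned bases. The Ly6c1 promoter was 76.3% identical to that of Ly6c2 over 215 aligned bases, although the transcripts of Ly6c1 and Ly6c2 are the closest pair. The upstream sequence thus pairs Ly6c2 with I830127L07Rik, and the transcript sequence pairs it with Ly6c1. Both strands were searched for AANNGAAA (IRF), TGTGGT (RUNX) and TCACAC (T-box). The RUNX letters occurred once on the opposite strand, 179 bases before the start of Ly6c2 and 174 bases before that of I830127L07Rik, and they occur in 14.05% of the 32841 mouse promoter windows of this length. The Ly6c1 window printed here held none of the 3 motifs, and no IRF letters were found in any window of the 3 genes. IRF letters occur in 21.3% of all windows. The window of a further Ly6c1 start site held the T-box letters, which occur in 12.3% of windows. No match overlapped a match of another motif.

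Libraries held 45205993 to 59853080 counts in genes. The targeted genes were checked first: Oxct1 in DKO was at 8.17% of its control level (63.1 ± 5.73 in control, SD, n = 4, and 5.16 ± 0.369 in DKO, n = 5, in CPM, counts scaled to the total of each library), and Bdh1 was at 34.9% (30.5 ± 4.16 and 10.6 ± 1.24). Xist, expressed from the inactive X chromosome of females, was at 0.132 ± 0.155 CPM in control (n = 4) and 14.9 ± 4.92 in DKO (n = 5). The sex of the cells and their genotype therefore cannot be told apart for any gene, including the Ly6 members and the other autosomal genes below. Control replicate 1 stood apart on the first principal component and control replicate 3 on the second, so values without them are given where they matter. Of 14918 genes tested, 422 (2.83%) had a Benjamini-Hochberg adjusted p below 0.05 by the quasi-likelihood test of edgeR, 197 higher and 225 (1.51%) lower in DKO. The 2 groups' CPM did not overlap for 1298 genes (8.70%).

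All 5 members were counted in every library and passed the filter on low counts. Ly6c2 was the most abundant of them. It measured 2219, 1700, 1780 and 1863 CPM in control replicates 1 to 4, and 873, 1046, 954, 1192 and 1064 CPM in DKO replicates 1 to 5. The lowest control library stood above the highest DKO library, and DKO replicate 1 was the lowest of all. The means were 1891 ± 229 CPM (SD, n = 4) and 1026 ± 120 CPM (n = 5), so DKO held 54.3% of the control level. The fitted log2 fold change of Ly6c2 was -0.88 (SE 0.10). By mean CPM it ranked 31 among all genes in control and 90 in DKO. Because the cells were sequenced in bulk, fewer Ly6c2-expressing cells and less Ly6c2 RNA per cell cannot be told apart.

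I830127L07Rik had the larger difference. It measured 387, 309, 290 and 367 CPM in control replicates 1 to 4, and 88.7, 124, 104, 136.5 and 122 CPM in DKO replicates 1 to 5. Its groups were also separate, with every DKO library at less than the lowest control value. The means were 338 ± 46.1 CPM (n = 4) and 115 ± 18.7 CPM (n = 5), which left DKO at 34.0% of control, and the log2 fold change was -1.56 (SE 0.13). Its rank by mean CPM was 474 in control and 2093 in DKO. Among the 14918 genes tested, 77 had a log2 fold change below that of I830127L07Rik and 449 below that of Ly6c2.

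Ly6a, the Sca-1 gene, was lower on average in DKO with overlapping groups. It measured 438, 269, 311 and 382 CPM in control replicates 1 to 4, and 194, 291, 218, 259 and 198 CPM in DKO replicates 1 to 5. DKO replicate 2 lay above control replicate 2, and the other 4 DKO libraries lay below every control library. The means were 350 ± 75.1 and 232 ± 41.9 CPM, and the log2 fold change was -0.59 (SE 0.16).

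Ly6e, the Sca-2 gene, had nearly equal means. It measured 746, 579, 582 and 730 CPM in control replicates 1 to 4, and 621, 683, 618, 684 and 589 CPM in DKO replicates 1 to 5. All DKO values of Ly6e lay within the control range. The means were 659 ± 91.2 and 639 ± 42.7 CPM, and the log2 fold change was -0.04 (SE 0.10). Its sign was not stable: without control replicate 1 it was 0.0078, and without control replicate 4 it was 0.0100.

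Ly6c1 was close to the floor of the assay, with 19, 20, 12 and 21 counts in control replicates 1 to 4 and 6, 17, 11, 18 and 13 counts in DKO replicates 1 to 5. The groups overlapped, with means of 0.344 ± 0.0553 (control) and 0.253 ± 0.0863 CPM (DKO), and the log2 fold change of -0.44 (SE 0.38) was not much larger than its error. Ly6C message assigned in these cells therefore came almost wholly from Ly6c2, with 391155 counts summed over the control libraries against 72 for Ly6c1.

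**Figure D1:**
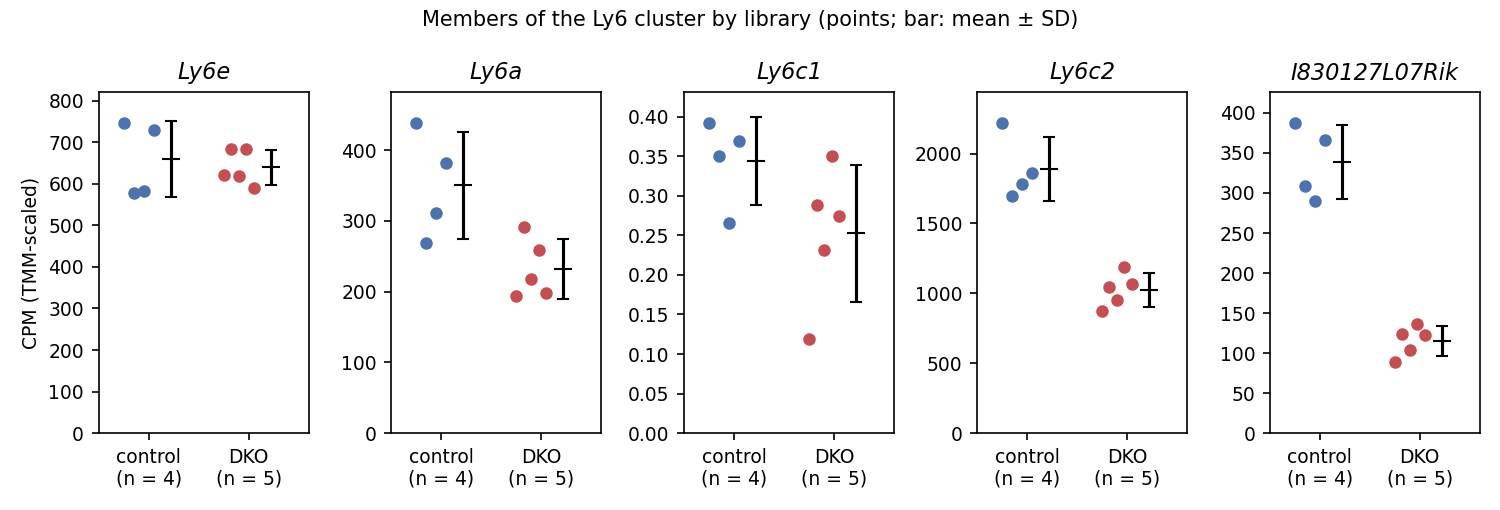
CPM of each of the 5 genes by library (points; blue, control, n = 4; red, DKO, n = 5), with the mean and SD as bars and each axis starting at 0. The groups are separate for Ly6c2 and I830127L07Rik and overlap for Ly6e, Ly6a and Ly6c1.

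Of the members, 2 of 5 (Ly6c2 and I830127L07Rik) passed the threshold, both lower in DKO, and the same 2 had groups that did not overlap. The background shares for all tested genes are 1.51% and 8.70%, as above, and since the members were chosen on this contrast nothing is read from their counts. In chromosomal order from Ly6e to I830127L07Rik the log2 fold changes were -0.04, -0.59, -0.44, -0.88 and -1.56. For the same reason no pattern along the chromosome is read from them. Leaving out control replicate 1 or any other library kept the log2 fold change of Ly6c2 between -0.94 and -0.81, and that of I830127L07Rik between -1.62 and -1.47. The 5 genes together took 0.284% to 0.392% of the counts of a control library and 0.178% to 0.228% of a DKO library.

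Levels of different genes are compared per transcript length, as TPM (reads per base of transcript, scaled to the same total in each library) computed from the longest transcript without a retained intron. In control libraries the order was Ly6c2 at 5096 ± 332 TPM, I830127L07Rik at 1027 ± 94.8, Ly6a at 810 ± 135, Ly6e at 640.5 ± 65.0 and Ly6c1 at 0.903 ± 0.114 (SD, n = 4). Ly6c2 stood clear of the rest, whereas I830127L07Rik overlapped Ly6a and Ly6a overlapped Ly6e. In DKO libraries the order became Ly6c2 at 2853 ± 285.5 TPM, Ly6e at 641 ± 37.5, Ly6a at 556 ± 95.8, I830127L07Rik at 360.5 ± 53.1 and Ly6c1 at 0.683 ± 0.224 (n = 5). Ly6e and Ly6a overlapped there, and I830127L07Rik lay below both in all 5 libraries. The locus annotated as a pseudogene thus moved from the second level of the members in control to the fourth in DKO. With the union of all exons as the length, an alternative added after seeing the data, Ly6c2 was at 2180 TPM in control and 1218 in DKO, and Ly6a (627) stood above Ly6e (550) in DKO.

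**Figure D2:**
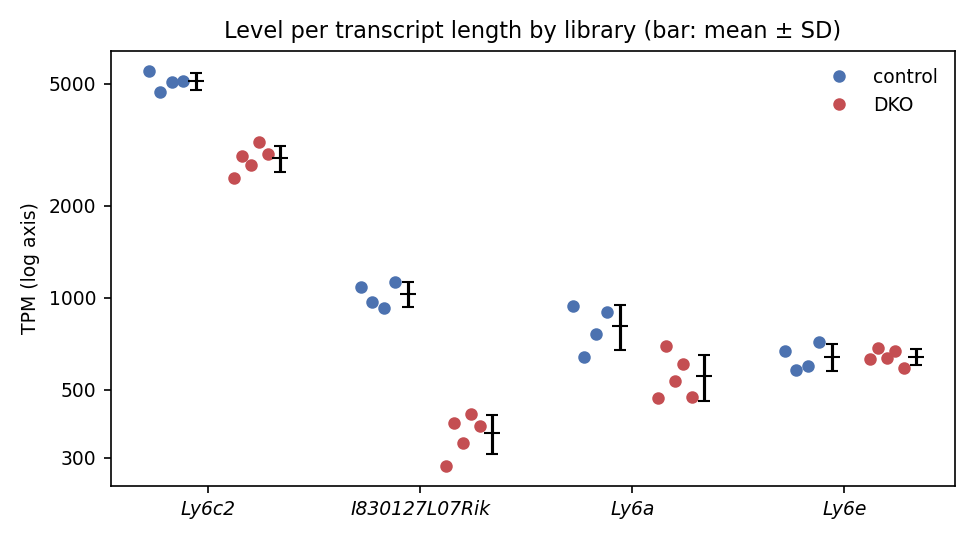
TPM (log axis) by library for the 4 members above 1 CPM (points; blue, control, n = 4; red, DKO, n = 5), with the mean and SD as bars. Ly6c2 is highest in both groups, and I830127L07Rik lies beside Ly6a in control but below Ly6a and Ly6e in DKO.

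Ratios within a library do not depend on how libraries were scaled. I830127L07Rik counts were 17.5%, 18.2%, 16.3% and 19.7% of Ly6c2 counts in control replicates 1 to 4, and 10.2%, 11.9%, 10.9%, 11.45% and 11.5% in DKO replicates 1 to 5. The ratio was separate between groups, at 17.9% ± 1.42 (SD, n = 4) and 11.2% ± 0.661 (n = 5). Ly6c2 and I830127L07Rik thus differed between the groups to unequal extents. Their promoter windows differ at few bases, and the part of the promoters in either difference was not tested. Ly6a counts were 52.7% ± 5.03 of Ly6e counts in control, from 46.5% to 58.7%, and 36.1% ± 4.35 in DKO, from 31.2% to 42.6%. The ranges of this ratio did not overlap between the groups, whereas those of Ly6a alone did. Ly6c2 counts were 288% ± 22.4 of Ly6e counts in control and 160.5% ± 16.5 in DKO, also without overlap. Since the members were chosen on this contrast, nothing is read from the separation of these ratios. Among all tested genes, 8.7% had groups whose CPM did not overlap. In CPM, which does depend on scaling, control replicate 1 was highest in Ly6c2, I830127L07Rik, Ly6a and Ly6e alike. DKO replicate 1 was lowest in CPM in Ly6c2, I830127L07Rik, Ly6a and Ly6c1. In TPM, control replicate 4 was highest in I830127L07Rik and Ly6e.

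**Figure D3:**
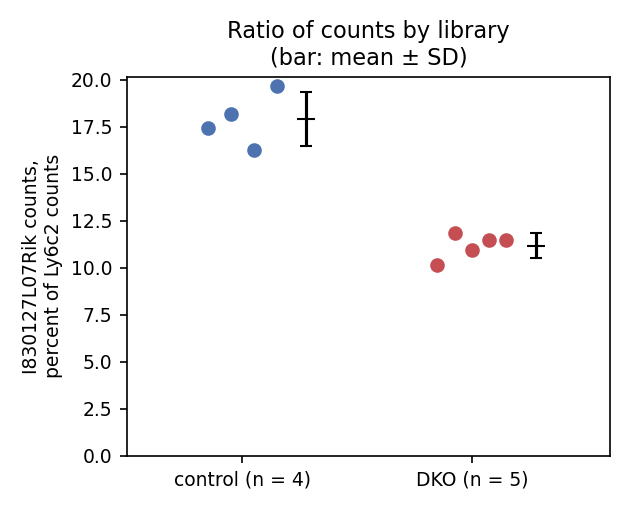
I830127L07Rik counts as a percent of Ly6c2 counts in each library (points; blue, control, n = 4; red, DKO, n = 5; bars, mean and SD). Control libraries lie between 16.3% and 19.7% and DKO libraries between 10.2% and 11.9%.

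To describe which genes had a like profile, log2 CPM over the 9 libraries was centred on each gene's mean, and the root mean square (RMS) difference from each member but Ly6c1, whose mean was under 1 CPM, was ranked over all tested genes. Ly6c2 was nearest to As3mt, an arsenic methyltransferase (RMS difference 0.106), Cox8a, a subunit of cytochrome c oxidase (0.117), and Gm14044 (0.121). As3mt averaged 206 CPM in control libraries against 111 in DKO libraries, and Cox8a 187 against 112. I830127L07Rik was nearest to Gm10522 (0.175), Tmem171, a membrane protein (0.197), and Fcgr2b, the inhibitory Fc receptor (0.199). Fcgr2b averaged 45.4 CPM in control libraries and 13.2 in DKO libraries, a log2 fold change of -1.78. Ly6a was nearest to Armc3 (0.106), Pigp, which acts in the first step of GPI anchor synthesis (0.122), and I730030J21Rik (0.129). Ly6e was nearest to Ube2d2a, a ubiquitin-conjugating enzyme (0.0610), Rps18, a ribosomal protein (0.0667), and Pgls, an enzyme of the pentose phosphate pathway (0.0687). These differences are not scaled to how much a member varied. Around its own mean, the RMS was 0.13 for Ly6e, 0.38 for Ly6a, 0.46 for Ly6c2 and 0.80 for I830127L07Rik. The median RMS difference over all tested genes was 0.30, 0.47, 0.54 and 0.85 in that order. Each profile includes the group difference on which the members were chosen. Between members, the RMS difference was smallest for Ly6a and Ly6c2 (0.225), was 0.348 for Ly6c2 and I830127L07Rik, and was largest for Ly6e and I830127L07Rik (0.771). No member was among the 3 nearest genes of these 4 members.

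The rest of the cluster was at or near the floor. It holds 19 Ly6/uPAR genes between chr15:74714839 and chr15:75599481, 4 of them members, and none of the other 15 reached 1 CPM in a library. Of these 15, 8 had no count in any library, and the highest value was 0.604 CPM (31 counts). Ly6g, which marks neutrophils, was among those under 1 CPM.

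Around the members, 2 of the 27 other tested genes within 1 Mb (7.41%), of which Lynx1 belongs to the cluster, passed the threshold, both lower in DKO, against 2.83% of all tested genes and 14 of 571 tested genes (2.45%) on chromosome 15. Rhpn1 measured 2.68, 4.71, 6.88 and 4.11 CPM in control replicates 1 to 4, and 1.29, 0.779, 0.777, 0.643 and 0.529 CPM in DKO replicates 1 to 5. The groups were separate, and the log2 fold change of Rhpn1 was -2.51, with SE 0.31 and an edgeR adjusted p = 0.00255. Top1mt, the mitochondrial DNA topoisomerase, averaged 6.48 ± 1.27 CPM in control (n = 4) against 3.93 ± 0.383 in DKO (n = 5), a log2 difference of -0.72 with SE 0.16 and an edgeR adjusted p = 0.0384. Rhpn1 kept its call under all 15 alternatives, and Top1mt lost its call under 9, among them leaving out control replicate 2 or 4 or any 1 DKO library. Over the 27 genes 16 had a log2 fold change below 0 and the median was -0.13, beside a median of -0.01 over all tested genes. Measured between the lower coordinates of the genes, whatever their strand, Rhpn1 lies 596 kb and Top1mt 549 kb from Ly6c2. Other tested genes between them and the members did not pass.

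**Figure D4:**
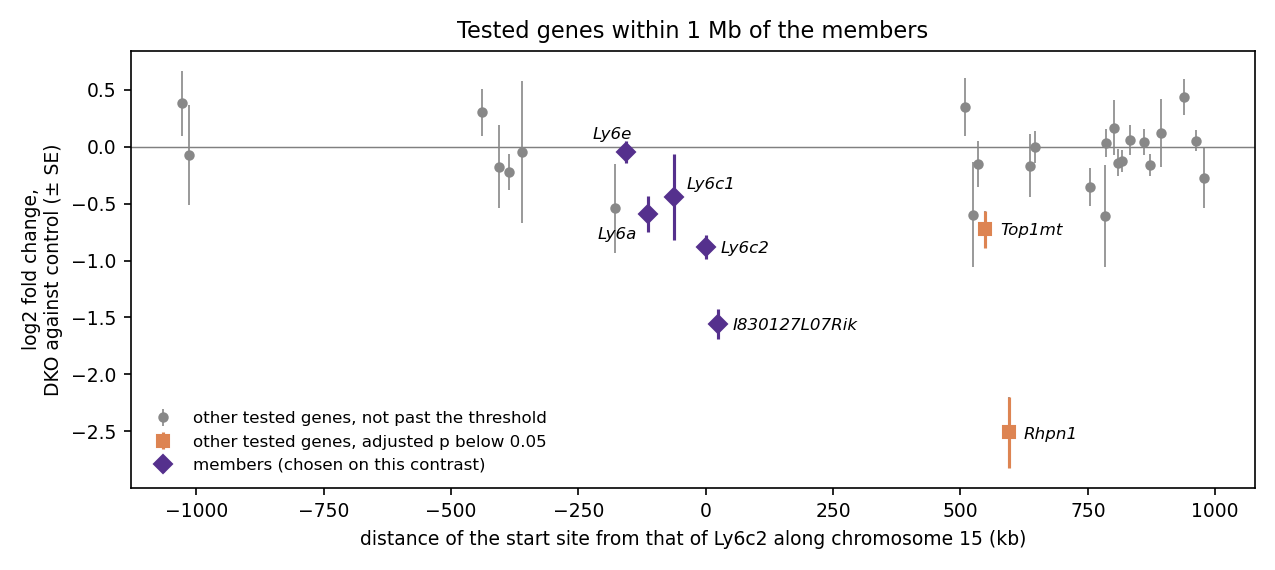
Log2 fold change in DKO against control (± SE) of the 5 members (diamonds) and the 27 other tested genes within 1 Mb, by distance from Ly6c2 in kb. Members are placed by their start sites. The other genes are placed by the lower coordinate of each gene, measured from that of Ly6c2, so for minus-strand genes this is not the start site. Rhpn1 and Top1mt (squares) are the other genes with an adjusted p below 0.05.

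Interferon receptors and signal transducers were examined because Ly6 genes respond to interferon. Among them, the most abundant genes that did not pass the threshold were Jak1, Ifngr1 and Tyk2. Jak1, a receptor-associated kinase, averaged 4366 CPM in control and 3346 in DKO (log2 fold change -0.38, SE 0.13). Ifngr1, an interferon-gamma receptor chain, averaged 538 and 600 CPM (0.16, SE 0.11). Tyk2, a kinase associated with the type I interferon receptor, averaged 304.5 and 354 CPM (0.22, SE 0.20). Without control replicate 1, Jak1 and Ifnar1, another receptor chain, passed the threshold, both lower in DKO.

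Of 33 interferon-inducible genes, all tested, 4 were lower in DKO and none higher, where 1.51% of all tested genes were lower. The list had 26 genes with a log2 fold change below 0 and a median of -0.22, and 23 to 29 genes below 0 under the alternatives. Oas1a, a sensor of double-stranded RNA, measured 12.05, 8.28, 12.45 and 11.9 CPM in control replicates 1 to 4, and 5.22, 5.50, 3.02, 5.90 and 4.97 CPM in DKO replicates 1 to 5. No DKO library reached the lowest control value, and the log2 fold change of Oas1a was -1.18 (SE 0.20, edgeR adjusted p = 0.0108). Usp18, which removes ISG15 and restrains type I interferon signalling, had a log2 fold change of -0.77 (SE 0.15, edgeR adjusted p = 0.0218). The antiviral enzyme Rsad2 had -1.25 (SE 0.27, edgeR adjusted p = 0.0343) and Rtp4 had -1.09 (SE 0.24, edgeR adjusted p = 0.0352). The most abundant inducible genes that did not pass were the GTPases Ifi47 (344 CPM in control, 339 in DKO) and Gbp7 (324.5 and 319) and the immunoproteasome subunit Psmb9 (310 and 281). The count of 4 was 2 without control replicate 3, 1 without control replicate 4, and 1 without DKO replicate 1, 3 or 5, and Oas1a was called in each of these. DESeq2's Wald test called 9, all lower, but it called 1059 genes in all, against 422 with edgeR.

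**Figure D5:**
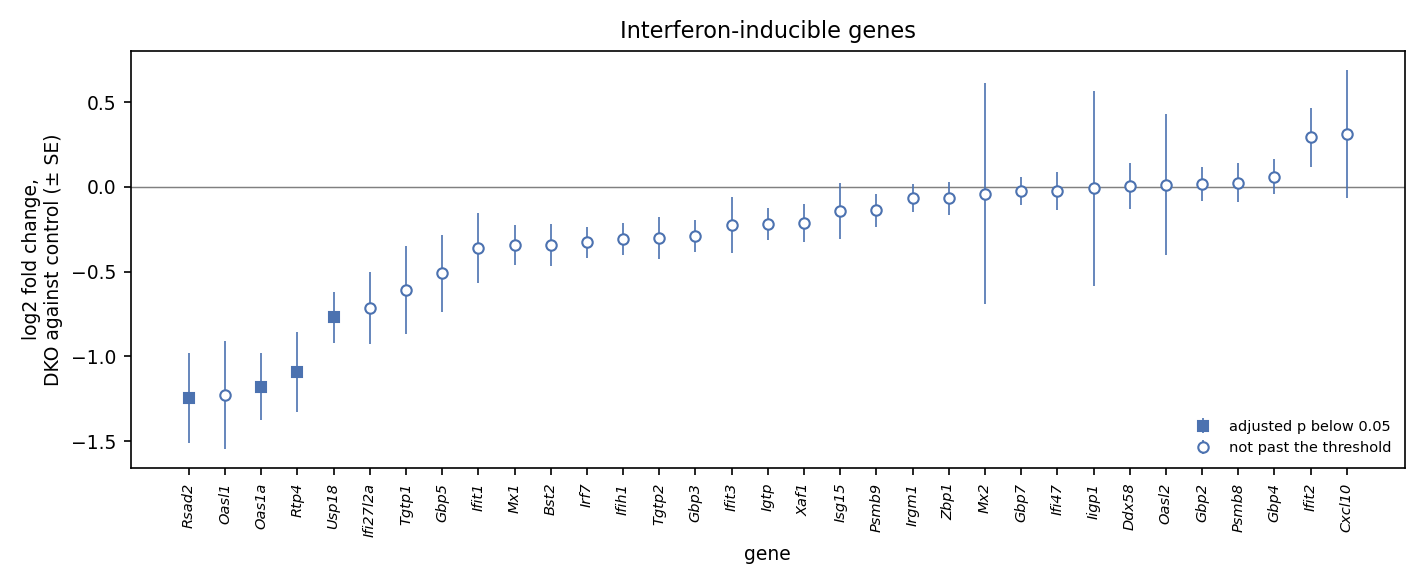
Log2 fold change in DKO against control (± SE) of 33 interferon-inducible genes in ascending order (filled squares, adjusted p below 0.05; open circles, not past the threshold). All 4 called genes lie below 0, and the abundant genes Ifi47 and Gbp7 lie at -0.02 and -0.03.

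GPI anchors hold most Ly6 proteins at the surface. Of 27 tested genes of anchor synthesis, 1 was lower, none was higher, 16 were below 0 and the median was -0.02, beside shares of 1.51% lower and 2.83% in either direction over all tested genes. DESeq2's Wald test, which called 1059 genes in all, called 3 of this list, with Pigt and Gpaa1 higher and Pigp lower. Pigp, named above, was at 15.7 ± 2.54 CPM in control (n = 4) and 10.4 ± 0.868 in DKO (n = 5), a log2 difference of -0.60 with SE 0.13 and an edgeR adjusted p = 0.0337. It lost its call without control replicate 4 or without any 1 DKO library, and without control replicate 1 the list had 2 called genes, 1 of them higher. The most abundant synthesis genes that did not pass were Pigs (146 CPM in control, 154 in DKO), Mppe1 (109.8 and 98.9) and Dpm2 (84.8 and 78.3). Among other GPI-anchored proteins of lymphocytes, 12 of 14 genes were tested and 1 was lower, again beside 1.51% of all tested genes. This was Cd55, which limits complement, at 38.5 ± 2.67 CPM in control (n = 4) and 29.2 ± 2.15 in DKO (n = 5), a log2 difference of -0.40 with SE 0.09 and an edgeR adjusted p = 0.0406. It lost its call without control replicate 3 or 4 or any 1 DKO library. The abundant anchored proteins did not pass: Cd52 averaged 1614 CPM against 1378 in DKO, Cd48 at 1251 and 1241, and Thy1 at 162 and 178. Ly6/uPAR genes on other chromosomes were scarce, with 5 of 20 tested. None was called by edgeR or by DESeq2, and 2 had an unadjusted p under 0.05. Lypd6b was at 3.23 CPM in control and 2.36 in DKO, Ly6g5b at 2.02 and 1.84, and the receptor decoy Bambi at 1.36 and 0.680. Without control replicate 2, 1 gene of this list, Bambi, was called lower.

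CD8 T cell state is commonly read from genes measured beside Ly6C. Of 16 such genes, all tested, 2 were lower in DKO (1.51% over all tested genes) and none higher, 5 had a log2 fold change below 0, and the median was 0.15. Itgae, the CD103 integrin of tissue-resident cells, was at 9.77 ± 1.03 CPM in control (n = 4) and 5.87 ± 0.888 in DKO (n = 5), a log2 difference of -0.74 with SE 0.14 and an edgeR adjusted p = 0.0219. Eomes, a T-box factor of effector and memory cells, was at 71.9 ± 11.3 and 51.4 ± 5.12 CPM (n = 4 and n = 5), a log2 difference of -0.48 with SE 0.12 and an edgeR adjusted p = 0.0497. Itgae lost its call without control replicate 2 or 4 or DKO replicate 1, 2 or 4, and Eomes without any 1 library but control replicate 1. The most abundant state genes that did not pass were Tbx21, the T-bet gene (1106 CPM in control, 1293 in DKO), Il2rb (1076 and 1260) and S1pr1 (946.5 and 1045). These were higher on average in DKO, whereas Klrg1 (668 and 545.5 CPM) and Cx3cr1 (810 and 620.5) were lower and did not pass either. DESeq2's Wald test called 3 genes of this list, Klrg1, Eomes and Itgae, all lower, out of 1059 called over all genes. Without control replicate 1 the list had 4 called genes, 1 of them higher.

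Markers of other cells that make Ly6 proteins were measured in the same libraries. The 9 T cell identity genes were all above 1 CPM, and their sum was 9485 to 12670 CPM in control and 9256 to 9953 in DKO, with overlapping ranges and a lower mean in DKO (10830 and 9636). Cd8a was at 719 ± 56.3 CPM in control (n = 4) and 715 ± 33.4 in DKO (n = 5). The CD8 beta chain gene Cd8b1 (2246 and 1701 CPM) and the CD3 chain gene Cd3e (1194 and 1063) were lower in DKO with groups that did not overlap. The groups did not overlap for 8.7% of all tested genes. Cd3d (687 and 547) and Cd3g (989 and 803) were lower on average, and Lck (2750 and 2806) was higher on average. The part of these T cell genes in the Ly6c2 difference was not tested. The 12 monocyte and macrophage markers summed to 785 to 1063 CPM in control and 783.5 to 1015 in DKO, so the ranges overlapped. Nearly all of that sum was Ccr2 (869 CPM in control and 827 in DKO), which effector T cells also express. Of the defining genes, Csf1r was at 1.84 and 2.37 CPM, Lyz2 at 2.43 and 5.84 and Cd14 at 0.358 and 0.334. Cd68 (29.1 and 16.8 CPM) and Itgam (58.9 and 38.1 CPM), which activated T cells can also express, were lower on average in DKO like Ly6c2. The groups did not overlap for Cd68 and overlapped for Itgam, and the part of either gene in the Ly6c2 difference was not tested. The 10 neutrophil markers summed to at most 1.18 CPM, with Ltf at 0. The 5 plasma cell markers summed to at most 1.74 CPM. The 10 endothelial markers summed to 23.95 to 35.86 CPM in control and 23.32 to 27.41 in DKO, with overlapping ranges. Most of that sum was Pecam1 (24.6 CPM in control and 21.4 in DKO), and Tek and Emcn were at 0 in every library.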

How the data were processed

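RNA was isolated with an RNeasy kit and libraries were made with SMART-Seq v4 and Nextera Flex, per the labels' protocols. The deposited tables hold counts of reads per Ensembl gene. Reads were trimmed with Trim Galore 0.6.0 and aligned to mm10 with STAR 2.7.8a, per the submitters' processing notes. For the annotation release and aligner settings, nothing is given in the sources used here. The unstranded column was used, since both strands held about equal shares (49.9% to 50.1% on the first). Reads in genes were 67.0% to 74.0% of each library, 5.80% to 6.79% mapped to several places, 4.01% to 5.20% met no feature, 4.97% to 5.31% were ambiguous and 10.3% to 16.7% did not map, and these 4 classes stayed out of library sizes.

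Of 55471 gene identifiers, 55230 matched GENCODE M21 without the version number. Genes were filtered with filterByExpr (minimum count 10), scaled by TMM (factors 0.987 to 1.035) and fitted with edgeR 4.0.16 (R 4.3.3), with glmQLFit, glmQLFTest and a group term, over 14918 genes. Adjusted p-values are Benjamini-Hochberg over all tested genes. CPM uses TMM-scaled library sizes, and TPM uses transcript lengths from GENCODE M21. The script was tested on simulated data. Common biological variation between libraries was 20.9% (coefficient of variation).

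The members and lists were chosen with earlier results of these data known, and no p-value is given for a member. Named are the members, other cluster genes at 1 CPM or more, neighbours within 1 Mb past the threshold, list genes past it (at most 6 a list) with up to 3 of the most abundant others, and the 3 genes nearest in profile to each member. Marker genes are given as description, and Ly6g, Klrg1 and Cx3cr1 were named after their values were seen. Results on 1 list gene that the rule names and on 1 motif are not reported here. Alternatives were DESeq2 1.42.0 size factors and Wald test, 2 other filters, the summed strand columns, a replicate block and leaving out each library.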

Additional observations from a re-analysis of the deposited data

Results flagged for a closer look

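Among 38 groups of values examined for a library far from the rest, 3 held one, and chance flags about 1 in 20 groups. Oas1a in control replicate 2 was at 8.28 CPM, with the nearest control library at 11.9, and still above every DKO library. Itgae in control replicate 3 was at 8.25 CPM, with the nearest control library at 10.1. Top1mt in DKO replicate 2 was at 3.27 CPM, with the nearest DKO library at 3.95. None of the 5 Ly6 members had such a library.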

How the results depend on the processing

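Over 15 alternatives (14 for Ly6c1, which the stricter filter removed) the log2 fold changes of Ly6c2, I830127L07Rik, Ly6a and Ly6c1 kept their sign, with ranges of -0.94 to -0.81, -1.62 to -1.47, -0.70 to -0.48 and -0.59 to -0.27. Ly6e ranged from -0.10 to 0.01 and changed sign without control replicate 1 (0.0078) and without control replicate 4 (0.0100). The 422 genes called became 1059 with DESeq2's Wald test and 179 to 749 when 1 library was left out. The 9 list genes called became 17 with DESeq2's Wald test and 2 to 15 with 1 library left out, and the 2 called neighbours became 1 without a low-count filter and 1 to 2 with 1 library left out. With replicate number as a block, these counts were 67, 0 and 1. Same-numbered control and DKO libraries did not deviate together (r of -0.047, -0.009, 0.012 and -0.117), and 0 of 8 libraries correlated best with their own number. These values gave no sign that the numbers pair the samples, but so few libraries cannot exclude it. The cause of these shifts was not tested. Depth limits only Ly6c1 among the members.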
